A study of Mus musculus with 22 samples.

Results

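A set of 10 genes of insulin and IGF signalling were followed in brown adipose tissue (BAT) of mice with and without CPEB2, a protein that binds 3′ untranslated regions and controls the translation of the mRNAs that carry them. The genes were named in a fixed list of 10 (*Insr*, *Irs1*, *Irs2*, *Igf1*, *Igf1r*, *Pik3r1*, *Akt1*, *Akt2*, *Foxo1* and *Igfbp3*), out of 55487 gene identifiers counted in each table. All 10 passed the filter on low counts in both cohorts. The series held 22 RNA-seq libraries of whole BAT, 1 per mouse, all of the C57BL/6 background and on a chow of 9% fat. The untreated cohort held 5 CPEB2-WT and 5 CPEB2-KO mice aged 21 to 25 weeks, without any virus, which the study's text describes as food-deprived for some hours before collection. The AAV cohort crossed genotype with virus, with 3 mice each of WT + AAV-GFP and KO + AAV-GFP and 3 each of WT + AAV-PRDM16 and KO + AAV-PRDM16. These mice received an adeno-associated virus in 30 μl at 16 weeks of age, injected into the interscapular BAT, and the tissue was collected 9 weeks later at 25 weeks. The virus carried either GFP, a fluorescent control protein, or flag-tagged PRDM16, a transcriptional coregulator of brown fat identity, from a general AAV vector for which no cell-type-specific promoter is named. The KO is a global deletion in mice from heterozygous crosses, so every tissue that makes insulin, IGF-1 or growth hormone also lacks CPEB2.

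Insulin and IGF-1 bind the related receptor tyrosine kinases encoded by *Insr* and *Igf1r*. The active receptor phosphorylates the adapters IRS1 and IRS2, which recruit phosphoinositide 3-kinase (PI3K) through its regulatory subunit p85α, the product of *Pik3r1*. The lipid product of PI3K activates the kinases AKT1 and AKT2, and AKT keeps the transcription factor FOXO1 out of the nucleus. IGFBP3 is a secreted protein that binds IGFs and limits their access to the receptor. In brown fat the pathway drives glucose uptake, lipid synthesis and adipocyte differentiation. Phosphorylation carries most of its signal, so mRNA levels measure the abundance of the parts and not the activity of the pathway.

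The cytoplasmic polyadenylation element, the letters TTTTAT in the DNA of a transcript, is a known binding site of CPEB proteins, and the 3′ untranslated region of 1 principal transcript per gene (GENCODE M21, GRCm38) was searched for it on the sense strand. It was present in 7 of the 10 genes, as in 61.7% of the 15671 genes with a 3′ untranslated region of at least 300 bases, and absent from *Irs2*, *Akt1* and *Akt2*. *Insr* held 8 copies in 4747 bases and *Foxo1* 6 copies in 6240 bases, or 1.69 and 0.962 per kb, against a median of 0.687 per kb over those genes. Among the 10, 5 lay below that median, *Irs1* at 0.442, *Pik3r1* at 0.232 and the 3 genes without the element. Within the last 300 bases, where such elements act together with the polyadenylation signal, a copy was found in *Igf1* and *Igfbp3* only, while 29.4% of all these genes had one. A match is a description of the letters and not evidence of binding. The last copy in each of the 7 genes is shown with the bases around it, 5′ to 3′, with the element in capitals. These are examples of places where CPEB2 could contact the mRNAs whose levels follow. *Insr*, *Foxo1*, *Igf1r*, *Irs1* and *Igfbp3* held further copies, and other sites, such as the U-rich sequences that the paper marks in *Prdm16*, were not searched.
Igfbp3: agtaaataaagtTTTTATcatttaaaaaaa
Igf1: agtttctctcttTTTTATttttttccatat
Insr: ctctggtcaaatTTTTATctgtatgtgggc
Irs1: tagtgctagcatTTTTATtttagtccattt
Igf1r: aacatagaataaTTTTATaaaatgtttgta
Foxo1: tagtctagacttTTTTATtcttggaatatc
Pik3r1: gcaattcttaatTTTTATtatgttgttacc
The *Igfbp3* copy ended 14 bases before the end of the transcript and the *Igf1* copy 229 bases before it. In the other 5 genes the distance was from 444 bases (*Insr*) to 3447 bases (*Pik3r1*).

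Library totals lay between 55320927 and 162721202 counts for untreated mice and between 61636889 and 143005309 for AAV mice, and even the lowest member count in a library was 345 (*Igfbp3*). *Cpeb2* was at 10.5 to 13.96 CPM (each count scaled to the size of its library) in the 6 WT libraries of the AAV cohort and at 4.33 to 5.55 CPM in the 6 KO libraries. In the untreated cohort it was at 7.69 to 14.3 CPM in WT and at 2.10 to 5.78 CPM in 4 libraries labelled KO, whereas the library of mouse 1 with that label reached 11.7 CPM, as high as most WT mice. *Prdm16* was at 23.9 to 40.2 CPM with AAV-GFP and at 45.8 to 128 CPM with AAV-PRDM16. The labels give all mice as male, but 6 of the 10 untreated libraries (WT mice 3 and 5 and mice 1, 3, 4 and 5 labelled KO) held over 100 CPM of *Xist* and under 2 CPM of 4 Y-linked transcripts together, and WT mouse 4 held both. No AAV library did. WT mice 1 and 2 were the only WT libraries with Y-linked transcripts and under 1 CPM of *Xist*. The 12 mature skeletal muscle markers summed to 3585 to 7304 CPM in WT mouse 3 and in mice 1 and 2 labelled KO, and to 16.2 to 1219 CPM in the other untreated libraries. The tissue itself was brown fat by its markers, with *Ucp1* from 1184 to 6697 CPM over all libraries. Libraries high in *Xist* and low in Y-linked transcripts were more frequent under the KO label than in WT. The untreated genotype difference therefore cannot be fully told apart from this imbalance. The untreated results are also given without WT mice 1 and 2 and mouse 1 labelled KO. That fit does not remove every library at odds with the male label, since WT mice 3 and 5 and mice 3, 4 and 5 labelled KO stay in.

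Levels between genes were compared only per kilobase of exon. *Akt2*, the AKT form that mediates insulin-stimulated glucose uptake in fat, stood highest in both cohorts, at 62.1 ± 5.52 CPM per kb (SD, n = 12) in the AAV libraries and at 57.9 ± 21.5 (SD, n = 10) in the untreated ones. *Akt1* followed at 15.4 ± 1.39 CPM per kb in the AAV cohort, and the lowest *Akt2* library there was at 53.8, above the highest *Akt1* library at 18.1. *Pik3r1*, *Foxo1* and *Insr* came next at 9.85 ± 3.79, 8.50 ± 2.90 and 7.60 ± 0.575 CPM per kb, and these 3 overlapped. *Irs2* (4.97 ± 1.94), *Irs1* (3.16 ± 0.793) and *Igfbp3* (2.57 ± 0.772) each overlapped with the next in this order. The lowest *Igfbp3* library, at 1.29 CPM per kb, lay above the highest *Igf1* library, at 1.23. *Igf1* at 0.785 ± 0.228 and *Igf1r* at 0.704 ± 0.131 CPM per kb were the lowest and did not differ beyond their spread. *Insr* was therefore the more abundant of the 2 receptors in every AAV library, with a lowest value of 6.74 against a highest of 0.863 CPM per kb for *Igf1r*. In the untreated libraries the mean of *Irs2* came after both AKT genes, at 16.1 ± 11.1 CPM per kb against 16.9 ± 4.43 for *Akt1*. The *Irs2* range, 4.78 to 45.7, overlapped that of *Akt1*, 14.1 to 28.6, and the lowest *Akt2* library, at 38.0. The 2 cohorts were counted and scaled in separate tables and differ in virus, at ages of 21 to 25 weeks (untreated) and 25 weeks (AAV). The study's text gives food deprivation for the untreated mice and no feeding state for the AAV mice. The levels of the 2 cohorts therefore stand side by side without a test.

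**Figure D1:**
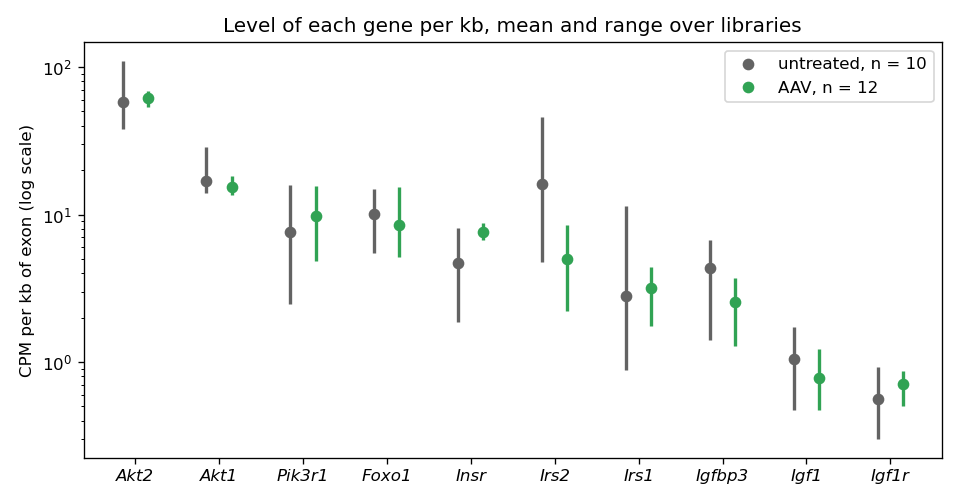
Mean level (point) and range over libraries (line) of each of the 10 genes, in CPM per kb of exon on a log axis, in the untreated (grey, n = 10) and AAV (green, n = 12) cohorts. *Akt2* stands highest in both, and the ranges of *Irs1*, *Irs2* and *Insr* are wider in the untreated mice.

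The spread between mice of one cohort differed widely among the 10 genes. In the AAV cohort *Insr*, *Akt2* and *Akt1* were the most even, with a coefficient of variation of 7.57%, 8.90% and 9.02% over 12 libraries, and *Irs2* (38.9%) and *Pik3r1* (38.4%) the least. In the untreated cohort *Irs1* varied most, by 116% over 10 libraries and 12.8-fold between the lowest and highest, followed by *Irs2* (68.8%, 9.57-fold) and *Pik3r1* (60.8%, 6.44-fold). *Insr* varied by 44.1% there. Both *Irs1* and *Irs2* were highest in WT mouse 2, and *Akt1* and *Akt2* both in mouse 5 labelled KO. Over the 10 untreated libraries the log2 CPM of *Akt1* and *Akt2* correlated with r = 0.91 and that of *Insr* and *Pik3r1* with r = 0.87, as descriptions across mice that share library depth and cell makeup.

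The first comparison asked how loss of CPEB2 alone altered the pathway in untreated BAT. The receptor and its first relays tended to be lower in the libraries labelled KO and the AKT kinases and *Igfbp3* higher, but no gene passed an FDR of 0.05 by edgeR's quasi-likelihood test. This held for all 17869 genes tested (0%). At an unadjusted p under 0.05, 2 of the 10 genes passed, both lower, against 10.9% of all genes that were lower and 15.9% in either direction. All 10 genes overlapped between groups, as all but 1.4% of genes did. The median log2 fold change (log2FC, positive where KO was higher) over the 10 genes was -0.22, with 7 negative, against 0.04 over all genes tested. Without WT mice 1 and 2 and mouse 1 labelled KO, none of the 10 had an unadjusted p under 0.05, against 3.52% of all genes higher and 4.37% lower, and the median was -0.23.

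*Irs1*, the adapter that couples the insulin receptor to PI3K, differed most. It was at 17.5, 104, 15.3, 12.9 and 46.1 CPM in WT mice 1 to 5 and at 8.13, 11.5, 18.6, 13.02 and 9.42 CPM in mice 1 to 5 labelled KO. A pair of WT mice was far above the rest, and the remaining 3 lay inside the KO range. The log2FC was -1.69 (SE 0.55, adjusted p = 0.305). It was the only one of the 10 genes past the study's own thresholds of a 2-fold change and an FDR of 0.5, which 10.8% of all genes passed and 4.72% passed as lower. Without WT mouse 2 the log2FC was -0.92, and without WT mice 1 and 2 and mouse 1 labelled KO it was -0.89 (adjusted p = 0.561).

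*Insr*, the insulin receptor, was at 101, 111, 55.5, 54.4 and 95.8 CPM in WT mice 1 to 5 and at 64.3, 43.9, 38.1, 58.5 and 25.7 CPM in the 5 mice labelled KO. The 3 highest WT mice stood above every KO mouse, and the other WT mice fell among the upper KO mice. The log2FC was -0.86 (SE 0.31, 95% interval -1.52 to -0.19, adjusted p = 0.305). Without WT mice 1 and 2 it was -0.52, and without mouse 1 labelled KO as well -0.70. *Pik3r1*, which encodes the regulatory subunit of PI3K, was at 124.8, 160, 35.0, 69.9 and 107 CPM in WT and at 118, 59.5, 33.6, 39.8 and 24.9 CPM in the mice labelled KO. Mouse 1 of the KO group, whose *Cpeb2* count lay within the WT range, was also the highest of the KO mice for *Pik3r1*, and 2 of the others fell within the WT range. The log2FC was -0.85 (SE 0.47, adjusted p = 0.354), -1.33 without that mouse, -0.30 without WT mice 1 and 2, and -0.82 without all 3.

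*Irs2*, the second adapter, was at 30.2, 289, 107, 111 and 73.1 CPM in WT and at 75.0, 91.15, 92.0, 91.6 and 58.3 CPM in the mice labelled KO. The KO mice clustered and the WT mice lay on both sides of them, with the highest value again in WT mouse 2. The log2FC of -0.58 (SE 0.46, adjusted p = 0.487) became 0.02 without WT mouse 2 and -0.19 without WT mice 1 and 2 and mouse 1 labelled KO.

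The AKT kinases lay the other way. *Akt1* was at 57.7 to 65.3 CPM in the 5 WT mice and at 58.2, 63.5, 80.6, 70.7 and 117 CPM in mice 1 to 5 labelled KO. *Akt2* was at 311 to 469 CPM in WT and at 311, 271, 536, 411 and 781 CPM in the mice labelled KO. For both genes mice 3 and 5 labelled KO lay above every WT mouse and the other KO mice overlapped WT for at least 1 of them. The log2FC was 0.36 (SE 0.23, adjusted p = 0.396) for *Akt1* and 0.35 (SE 0.31, adjusted p = 0.532) for *Akt2*, and 0.17 and 0.07 without mouse 5 labelled KO. Without WT mice 1 and 2 and mouse 1 labelled KO the values were 0.53 and 0.70. The sum of the 10 brown adipocyte markers was also highest in mouse 5 labelled KO, at 13837 CPM against 4617 to 11580 CPM in the other KO mice. The part of this in the AKT values was not tested.

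*Igfbp3* was at 10.98 ± 4.98 CPM (SD, n = 5) in WT and at 16.2 ± 4.14 CPM in the mice labelled KO, with a log2FC of 0.56 (SE 0.34, adjusted p = 0.380) that fell to 0.16 without WT mice 1 and 2 and mouse 1 labelled KO. *Igf1* (10.97 ± 2.51 and 9.85 ± 5.08 CPM), its receptor *Igf1r* (10.4 ± 2.21 and 8.52 ± 4.07 CPM) and *Foxo1* (90.6 ± 29.4 and 83.5 ± 37.1 CPM) had log2FCs of -0.16, -0.29 and -0.12, with adjusted p from 0.598 to 0.862. Without the 3 mice left out before, the log2FC was -0.28 for *Igf1*, -0.13 for *Igf1r* and -0.48 for *Foxo1*. For *Foxo1* the 95% interval ran from -0.86 to 0.62, so that a change of that size in either direction was not excluded with 5 mice a group. In whole tissue, fewer cells of a type and less mRNA per cell cannot be told apart for any of these genes.

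**Figure D2:**
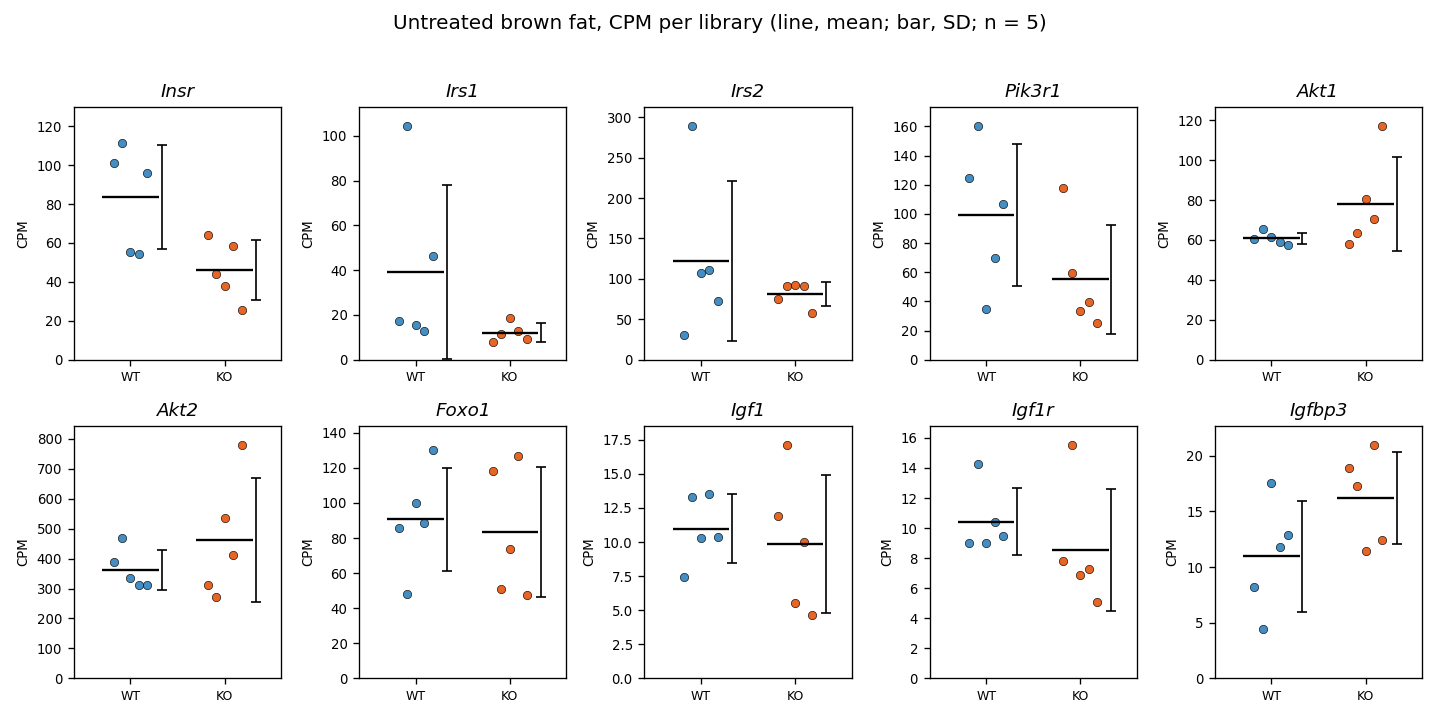
CPM of the 10 genes in each untreated library (points, mice 1 to 5 from left to right in each group), with the group mean (line) and SD (bar), n = 5. WT mouse 2 stands at 104 CPM for *Irs1* and 289 CPM for *Irs2*, and every gene overlaps between groups.

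In the AAV cohort the same genotypes were compared at 25 weeks in 4 groups, all mice having received a virus. Averaged over both viruses, 412 of 18899 genes passed an FDR of 0.05 (2.18%), 200 higher and 212 lower in KO, and none of the 10 insulin and IGF genes was among them by edgeR. *Pik3r1*, *Foxo1* and *Igf1r* had an unadjusted p under 0.05, all 3 higher in KO, against 9.54% of all genes that were higher and 18.3% in either direction. None of the 10 was free of overlap between genotypes, as were 1.13% of all genes that were higher and 1.58% that were lower. The median log2FC of the 10 genes was 0.13, against 0.01 over all genes. DESeq2 called *Pik3r1* and *Foxo1*, among 1584 genes in all (9.93% of those with an adjusted p). The *Cpeb2* label check was clear in this cohort, at a log2FC of -1.26 (adjusted p = 0.000449).

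**Figure D3:**
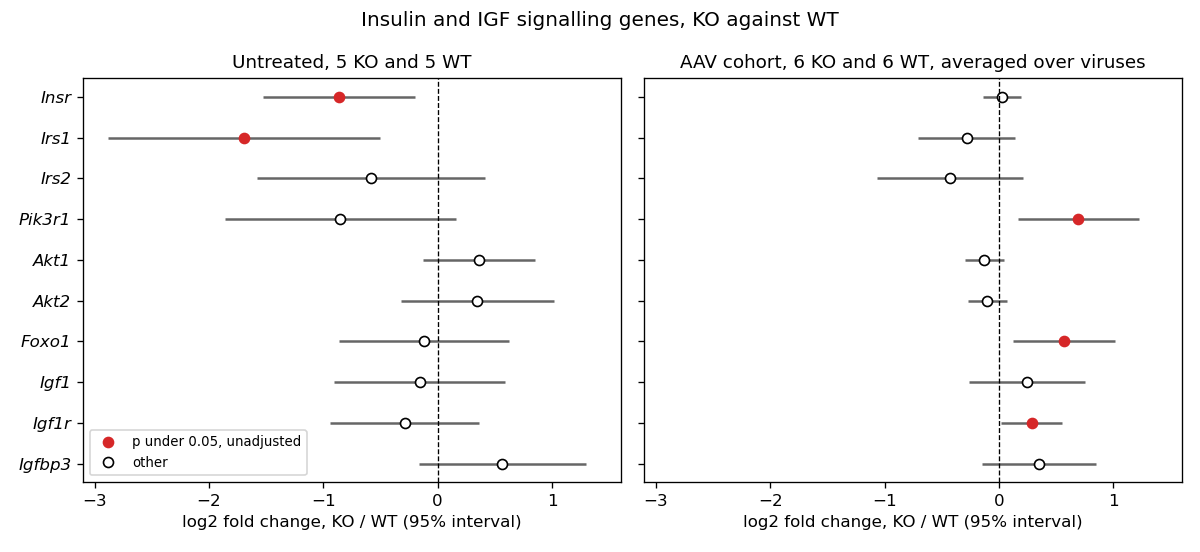
log2FC of KO against WT (point) with its 95% interval (line) from edgeR for the 10 genes, in untreated BAT (left) and averaged over both viruses in the AAV cohort (right). Red points have an unadjusted p under 0.05, and *Pik3r1* lies at -0.85 on the left and at 0.69 on the right.

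*Pik3r1* was at 62.3, 77.2 and 62.5 CPM in WT + AAV-GFP and at 49.1, 61.05 and 145 CPM in WT + AAV-PRDM16. In KO it was at 137, 135 and 85.3 CPM with AAV-GFP and at 98.8, 158 and 120.5 CPM with AAV-PRDM16. All 6 KO libraries lay above 5 of the 6 WT libraries, and WT + AAV-PRDM16 replicate 3 was the exception. That library also had the lowest *Prdm16* level of the AAV-PRDM16 mice, 45.8 CPM. The AAV-GFP libraries lay lower still, at 23.9 to 40.2 CPM of *Prdm16*, and a link between the 2 genes was not tested. The log2FC of *Pik3r1* averaged over viruses was 0.69 (SE 0.24, 95% interval 0.17 to 1.22, adjusted p = 0.146), or 0.70 with an adjusted p of 0.0314 by DESeq2. Without WT + AAV-PRDM16 replicate 3 it was 1.01 and passed edgeR's test (adjusted p = 0.0280). In untreated BAT the same gene had pointed the other way (-0.85). The difference between the cohorts was not tested, since their tables were scaled apart.

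Under AAV-GFP alone *Pik3r1* did not overlap between genotypes and had a log2FC of 0.82 (SE 0.34, adjusted p = 0.503). It was the only one of the 10 genes that did not overlap there, where 6.51% of all genes were higher without overlap, 13.4% did not overlap in either direction and 0.0529% passed an FDR of 0.05. The 9.18% of genes with an unadjusted p under 0.05 there included *Pik3r1* alone of the 10. Under AAV-PRDM16 its log2FC was 0.56 (SE 0.34, adjusted p = 0.508), with overlap, and 1.19 without WT + AAV-PRDM16 replicate 3.

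*Foxo1*, the transcription factor held in check by AKT, was at 47.3, 93.1 and 46.6 CPM in WT + AAV-GFP and at 44.8, 54.2 and 69.5 CPM in WT + AAV-PRDM16. In KO it was at 76.3, 91.0 and 77.4 CPM with AAV-GFP and at 78.4, 71.9 and 133 CPM with AAV-PRDM16. All 6 KO libraries lay above 5 of the 6 WT libraries, the exception being WT + AAV-GFP replicate 2. The averaged log2FC was 0.57 (SE 0.21, adjusted p = 0.158), and 0.58 with an adjusted p of 0.0441 by DESeq2. It was 0.75 (SE 0.29, adjusted p = 0.285) under AAV-PRDM16, where the groups did not overlap, and 0.39 (SE 0.29, adjusted p = 0.759) under AAV-GFP, where they did.

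*Igf1r*, the IGF-1 receptor, was at 13.3, 10.4 and 12.4 CPM in WT + AAV-GFP and at 9.56, 10.1 and 8.42 CPM in WT + AAV-PRDM16. In KO it was at 9.34, 14.5 and 14.2 CPM with AAV-GFP and at 13.8, 14.3 and 11.5 CPM with AAV-PRDM16. The WT + AAV-PRDM16 mice were the low group, below all of WT + AAV-GFP and all of KO + AAV-PRDM16. The log2FC between genotypes under AAV-PRDM16 was 0.49 (SE 0.17, adjusted p = 0.243), and *Igf1r* and *Foxo1* were the 2 of the 10 genes that did not overlap there, where 11.5% of all genes were higher without overlap, 22.8% did not overlap in either direction and 0.0476% passed an FDR of 0.05. The same 2 had an unadjusted p under 0.05, as did 13.7% of all genes. Under AAV-GFP the log2FC of *Igf1r* was 0.08 (SE 0.17), and averaged over viruses 0.28 (SE 0.12, adjusted p = 0.233).

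The remaining 7 genes did not reach an unadjusted p under 0.05 between genotypes. *Insr*, lower in untreated KO mice before adjustment, was at 102 ± 9.90 and 107 ± 4.35 CPM (SD, n = 3) in WT and KO given AAV-GFP, and at 106 ± 12.9 and 103 ± 5.82 CPM in WT and KO given AAV-PRDM16. Its averaged log2FC was 0.02, with a 95% interval from -0.14 to 0.19. *Akt1* and *Akt2* were as tightly held, with averaged log2FCs of -0.13 (interval -0.30 to 0.04) and -0.10 (interval -0.27 to 0.07). *Irs1* was at 33.7 ± 5.97 and 29.7 ± 8.23 CPM in the WT groups and at 27.7 ± 7.63 and 24.4 ± 7.70 CPM in the KO groups, and *Irs2* at 39.5 ± 20.1, 32.9 ± 10.1, 26.8 ± 11.7 and 26.6 ± 3.52 CPM in the same order. Their averaged log2FCs of -0.28 (adjusted p = 0.480) and -0.43 (adjusted p = 0.477) had the sign of the untreated comparison without passing either test. *Igf1* and *Igfbp3* had averaged log2FCs of 0.25 and 0.35 (adjusted p = 0.635 and 0.458).

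**Figure D4:**
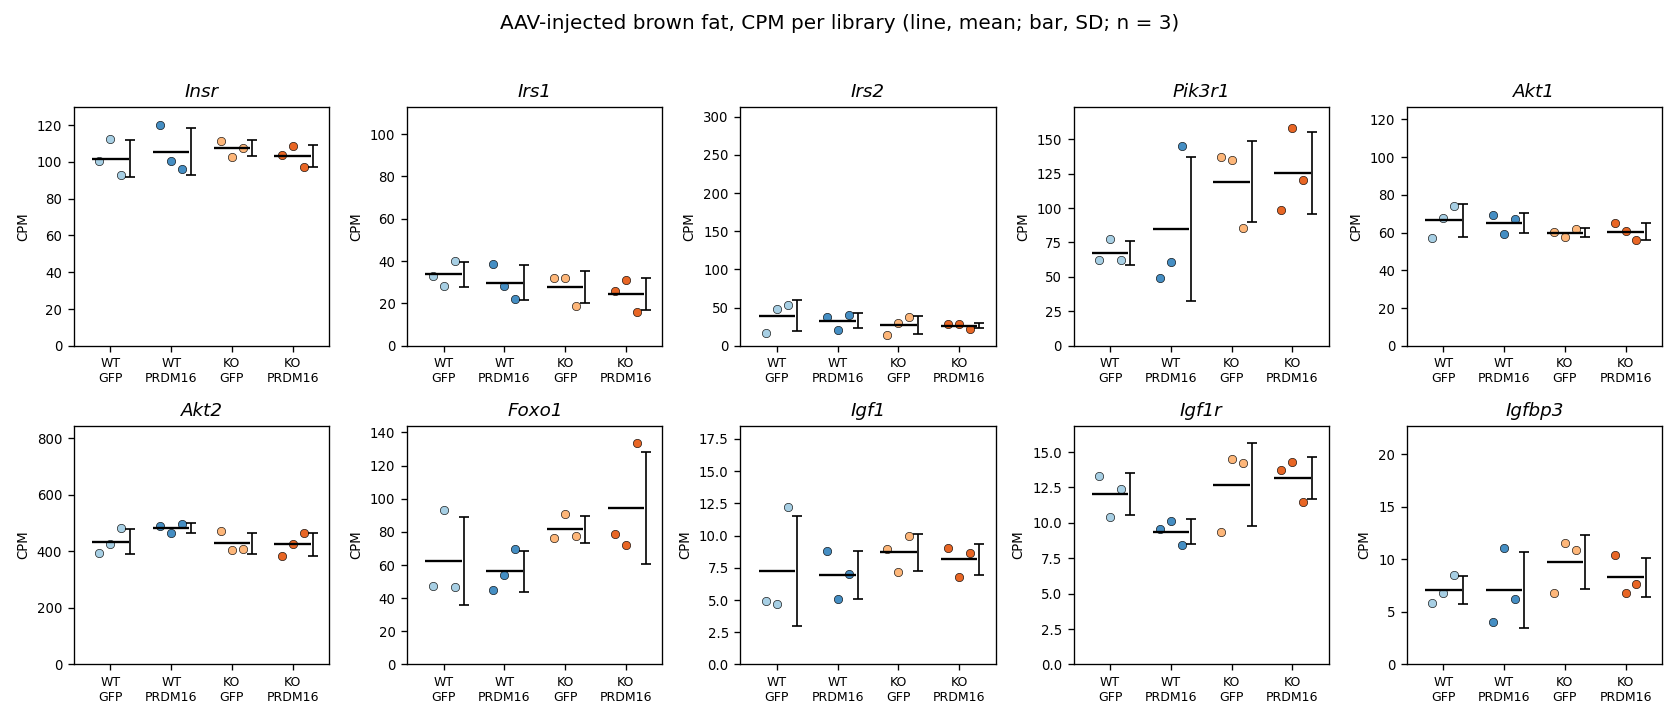
CPM of the 10 genes in each library of the 4 AAV groups (points), with the group mean (line) and SD (bar), n = 3. *Pik3r1* and *Foxo1* are higher in most KO libraries, *Igf1r* is lowest in WT + AAV-PRDM16 at 8.42 to 10.1 CPM, and *Insr*, *Akt1* and *Akt2* are nearly level.

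Markers of several cell types moved with the groups of this cohort. The 8 macrophage markers summed to 59.9 to 130 CPM in WT and 152 to 375 CPM in KO given AAV-GFP, and to 43.0 to 54.1 CPM in WT and 81.9 to 99.9 CPM in KO given AAV-PRDM16. The 6 fibroblast and preadipocyte markers summed to 158 to 250 CPM in WT and 244 to 376 CPM in KO given AAV-GFP, and to 134 to 185 CPM in WT and 233 to 281 CPM in KO given AAV-PRDM16. The 10 brown adipocyte markers summed to 3988 to 6306 CPM in WT and 4270 to 4877 CPM in KO given AAV-GFP, and to 5718 to 7400 CPM in WT and 4193 to 5196 CPM in KO given AAV-PRDM16. The part of the fibroblast and adipocyte markers in the genotype differences of *Igf1r*, *Foxo1*, *Pik3r1* and the genes around them was not tested. With the mean log2 level of the macrophage markers as a covariate, chosen after seeing the data, the averaged log2FC was 0.89 for *Pik3r1*, 0.35 for *Foxo1* and 0.27 for *Igf1r*, and 0 of 18899 genes passed an FDR of 0.05. The deleted gene *Cpeb2* was thus not called either. The covariate did not overlap between genotypes under either virus, so this fit cannot separate it from genotype. Muscle markers, which set untreated libraries apart, summed to at most 106 CPM in any AAV library. The 8 T cell markers were low but moved with the virus. They summed to 1.72 to 21.8 CPM in WT and 8.05 to 30.1 CPM in KO given AAV-GFP. With AAV-PRDM16 they summed to 1.18 to 1.77 CPM in WT and 0.852 to 2.66 CPM in KO.

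The next question was whether PRDM16 given to BAT altered these genes. None of the tests called a difference. No gene of the 10 passed an FDR of 0.05 in WT, in KO or averaged over genotypes, where 0%, 0% and 0.037% of all genes did, and none had an unadjusted p under 0.05, against 7.29%, 6.41% and 9.09%. DESeq2 called none of the 10 either, against 0.873%, 1.44% and 3.19% of all genes with an adjusted p in the same 3 comparisons. Limma-voom also called none of the 10, and 1, 0 and 8 of all 18899 genes. *Prdm16* itself had a log2FC of 1.49 (SE 0.24, adjusted p = 0.0527) averaged over genotypes. The nearest to a difference was *Igf1r* in WT, with a log2FC of -0.36 (SE 0.17, adjusted p = 0.697) and no overlap between its groups, which 7.76% of all genes showed as lower and 14.2% in either direction. In KO 9.43% did. In KO its log2FC was 0.05 (SE 0.17), and averaged over genotypes -0.16 (SE 0.12). The genotype by virus interaction, the test of whether the virus acted differently in KO, was 0.41 for *Igf1r* (SE 0.24, 95% interval -0.11 to 0.94). At an FDR of 0.05 it called none of the 10 and 0% of all genes. At an unadjusted p under 0.05 it also passed none of the 10, against 3.19% of all genes.

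KO mice given PRDM16 were also set against WT mice given GFP, the comparison of treated mutants with controls. *Pik3r1* stayed higher in the KO mice, without overlap, at a log2FC of 0.90 (SE 0.34, adjusted p = 0.560). It was the only one of the 10 genes that did not overlap, against 6.15% of all genes that were higher and 13.2% in either direction, and none passed an FDR of 0.05, against 0.00529%. *Foxo1* had a log2FC of 0.60 (SE 0.29, adjusted p = 0.652) and *Igf1r* of 0.13 (SE 0.17). The 7.93% of genes with an unadjusted p under 0.05 included *Pik3r1* alone of the 10. This comparison shares its WT + AAV-GFP and KO + AAV-PRDM16 libraries with those above.

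Around the 10 genes, 8 lists of other pathway genes held 94 tested genes, and in the AAV cohort averaged over viruses edgeR called 4 of them, 3 higher and 1 lower in KO, against 2.18% of all genes. In the other 8 comparisons it called none of the 94, where 1 to 11 were higher and 1 to 18 lower at an unadjusted p under 0.05, against 3.19% to 15.9% of all genes in either direction. DESeq2 called up to 4 higher and 2 lower of them in these 8, the most under AAV-PRDM16, where it called 3.71% of all genes. *Grb10*, an adapter that binds the insulin and IGF-1 receptors and dampens them, rose by a log2FC of 0.68 (SE 0.12, adjusted p = 0.0186). It was at 7.01 to 10.4 CPM in the 6 WT libraries and at 11.2 to 17.9 CPM in the 6 KO libraries, without overlap, which 2.71% of all genes showed. *Igfbp4*, a secreted IGF-binding protein like *Igfbp3*, rose by 0.46 (SE 0.10, adjusted p = 0.0390), from 11.3 to 16.9 CPM in WT to 17.1 to 23.8 CPM in KO. *Stc1*, whose product inhibits the proteases that free IGFs from IGFBP4, rose by 1.41 (SE 0.28, adjusted p = 0.0283) at a low level, at most 2.24 CPM in any library. *Irs3*, an adapter of the IRS family found in rodent fat, fell by 0.73 on the log2 scale (SE 0.17, adjusted p = 0.0476), from 19.0 to 31.7 CPM in WT to 10.1 to 18.3 CPM in KO.

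**Figure D5:**
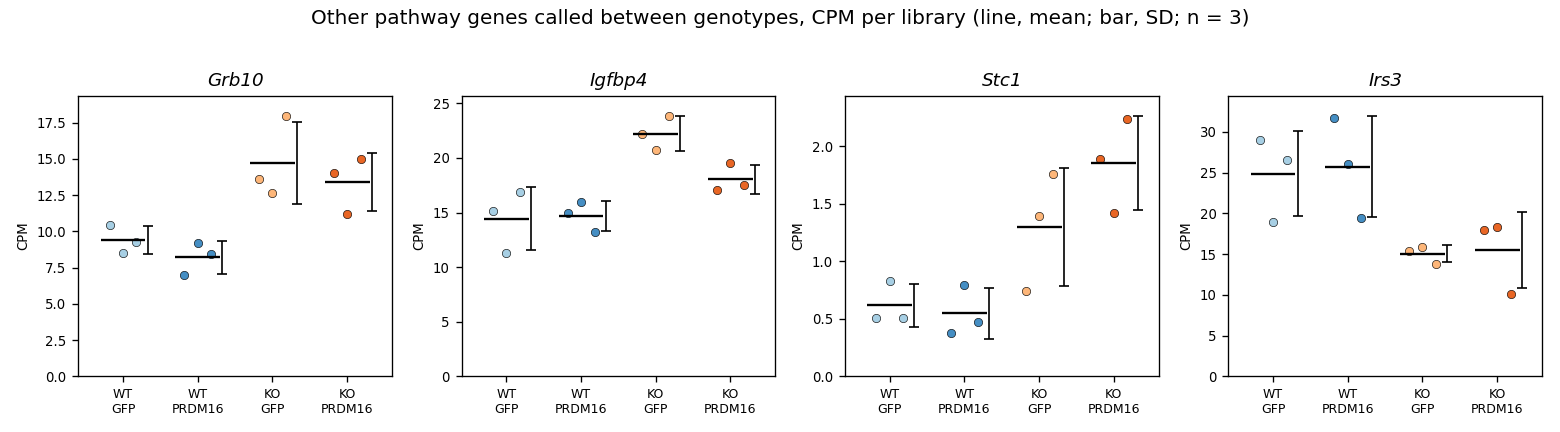
CPM of *Grb10*, *Igfbp4*, *Stc1* and *Irs3* in each library of the 4 AAV groups (points), with the group mean (line) and SD (bar), n = 3. The 6 KO libraries lie above the 6 WT libraries for *Grb10* and *Igfbp4* and below them for *Irs3*, while 1 KO library overlaps WT for *Stc1*.

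DESeq2 also called these 4, with adjusted p from 1.74e-05 (*Grb10*) to 0.00156 (*Irs3*), where it called 9.93% of genes with an adjusted p. By edgeR the 4 calls lay close to the threshold. With 1 library left out in turn, *Grb10* was called in 9 of 12 fits, *Stc1* in 5, *Igfbp4* in 2 and *Irs3* in 0, with adjusted p no higher than 0.125, and log2FCs that kept their direction. With the macrophage markers as a covariate none of the 4 was called (adjusted p from 0.384 to 0.605), but neither was any other gene, *Cpeb2* included. These markers did not overlap between genotypes under either virus, so that fit cannot separate them from genotype. In untreated BAT the log2FC of *Igfbp4* was 0.94 (SE 0.26, adjusted p = 0.305), at 26.6 ± 7.65 CPM in WT and 51.2 ± 12.5 CPM in the mice labelled KO (SD, n = 5). There *Irs3* (0.46, SE 0.43), *Stc1* (0.70, SE 0.58) and *Grb10* (0.26, SE 0.37) did not pass, and the *Irs3* value had the opposite sign. Without WT mice 1 and 2 and mouse 1 labelled KO the untreated log2FC was 0.81 for *Igfbp4*, 1.24 for *Irs3*, 0.13 for *Stc1* and -0.05 for *Grb10*, with adjusted p from 0.561 to 0.969.

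Of the lists of AKT effectors, mTOR, RAS and MAPK, FOXO targets and growth hormone, edgeR called no gene and DESeq2 called 7. In the AAV cohort averaged over viruses, 0 of 10 AKT effectors, 0 of 14 mTOR genes, 0 of 13 genes of the RAS and MAPK arm, 0 of 15 FOXO targets and 0 of 6 genes of the growth hormone axis passed edgeR's test, with list medians of the log2FC from -0.09 to 0.04. The most abundant of these genes, *Pck1*, a FOXO target that makes the glycerol backbone of triglycerides in fat, had a log2FC of -0.28 (SE 0.09, adjusted p = 0.115, and 0.0255 by DESeq2). *Pdk4*, a FOXO target that blocks pyruvate oxidation, had -0.40 (SE 0.12, adjusted p = 0.0951, and 0.0193 by DESeq2). *Slc2a4*, the insulin-responsive glucose transporter, was at 219 ± 24.7 and 217 ± 62.9 CPM (SD, n = 3) in WT and KO given AAV-GFP, and at 192.5 ± 32.1 and 217 ± 43.9 CPM in WT and KO given AAV-PRDM16. By DESeq2, 14 of the 92 pathway genes with an adjusted p were called in this comparison, 4 higher and 10 lower, against 5.23% of all genes higher and 4.70% lower. The 10 lower genes were *Pck1*, *Pdk4* and *Pnpla2* of the FOXO targets, *Akt1s1* and *Eif4ebp1* of the mTOR list, *Map2k2* of the RAS and MAPK arm, *Stat5a* of the growth hormone axis, *Irs3*, *Sh2b2* of the receptor regulators and *Igfals* of the binding proteins.

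In untreated BAT the list of PI3K and AKT genes had the lowest median log2FC, -0.60 over 13 genes, against 0.04 over all genes tested, and 6 of the 13 had an unadjusted p under 0.05, all lower, against 10.9% of all genes that were lower. None passed an FDR of 0.05. Without WT mice 1 and 2 and mouse 1 labelled KO the median was -0.37, and 1 of the 13 was lower and 2 were higher at that p. The list of ligands and binding proteins had the highest untreated median, 0.57 over 10 genes. At that p 3 of them were higher and 1 lower, against 892 of 17869 genes that were higher. Without the same 3 mice its median was 0.25, with 3 higher and 0 lower, against 3.52% and 4.37% of all genes. *Pdpk1*, the kinase that activates AKT, was at 37.3 ± 16.9 CPM in WT and 19.6 ± 5.90 CPM in the mice labelled KO (log2FC -0.93, SE 0.33, adjusted p = 0.305). Without the same 3 mice its log2FC was -0.52. In the AAV cohort its group means were from 49.9 to 51.9 CPM. *Gsk3b*, a kinase that AKT inhibits, likewise had a log2FC of -1.04 (SE 0.33, adjusted p = 0.305) in untreated mice, -0.63 without these 3, and group means from 77.6 to 83.8 CPM in the AAV cohort.

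For each of the 10 genes the genes with the most similar pattern over the 12 AAV libraries were sought, as a description. *Igf1r* was the only one of the 10 for which both correlations were also over 0.8 in the untreated libraries. Its log2 CPM correlated with that of *Dock9* at r = 0.96 over 12 AAV libraries and 0.87 over 10 untreated ones, and with that of *Tnrc6c* at r = 0.95 and 0.91. For *Irs1* the pair was *Eif4ebp2* (0.92 and 0.39) and *Fam210b* (0.90 and 0.58), for *Foxo1* *Mat2a* (0.92 and 0.46) and *Trip11* (0.91 and 0.15), and for *Igfbp3* *Fmn1* (0.89 and 0.62) and *Tram2* (0.89 and -0.01). For *Pik3r1* it was *Ap2m1* (0.90 and -0.78) and *Micall1* (0.84 and 0.70), for *Insr* *Rpap1* (0.91 and -0.44) and *Supt7l* (0.90 and -0.46), and for *Irs2* *L3mbtl3* (0.89 and 0.27) and *Tbl2* (0.86 and -0.34). *Igf1* was closest to *Clu* (0.90 and 0.03) and *Trf* (0.86 and -0.01), *Akt1* to *Rabggtb* (0.91 and -0.57) and *Cdkn2c* (0.89 and 0.35), and *Akt2* to *Mycbp* (0.95 and -0.27) and *Mrpl51* (0.92 and 0.26). The highest of many values is high by selection in 12 libraries, and the points share depth and cell makeup.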

How the data were processed

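Whole BAT mRNA of 22 mice was sequenced by the authors (SureSelect XT HS2 kit). The submitters' processing notes name bcl2fastq 2.20, Trimmomatic 0.36, HISAT2 and the GRCm38.p6 build. The counting tool and the handling of strand and molecular identifiers are not given in the sources used here, so reads of overlapping or antisense genes cannot be told apart. The authors deposited whole-number counts per gene for each cohort, without normalization. A table of gene names gave a symbol to 55141 of 55487 identifiers, and gene models and coordinates came from GENCODE M21 (GRCm38). The 10 members lie at *Insr* chr8:3122061-3279617 (minus strand), *Irs1* chr1:82233101-82291416 (minus), *Irs2* chr8:10984681-11008458 (minus), *Igf1* chr10:87858265-87937042 (plus), *Igf1r* chr7:67952827-68233668 (plus), *Pik3r1* chr13:101680563-101768217 (minus), *Akt1* chr12:112653821-112674884 (minus), *Akt2* chr7:27591552-27640826 (plus), *Foxo1* chr3:52268336-52353221 (plus) and *Igfbp3* chr11:7206086-7213923 (minus). All are protein-coding.

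Groups and replicate numbers came from the sample titles. In R 4.3.3, each cohort was filtered with filterByExpr (17869 untreated and 18899 AAV genes kept), scaled by TMM and fitted by edgeR 4.0.16 with its two-sided quasi-likelihood test, and p-values were adjusted over all genes kept by Benjamini-Hochberg. The 10 untreated and the 12 AAV libraries were separate fits without covariates, and adjusted p-values are edgeR's unless DESeq2 is named. CPM are TMM-scaled. Correlations used log2 CPM with a prior count of 2. Each mouse is a replicate. Pairs of libraries of one group differed far beyond counting noise, and unevenly among untreated WT mice. By a chi-square per gene, WT mice 1 and 2 differed by 191 from each other and by 892 to 1582 from WT mice 3, 4 and 5. The latter differed among themselves by 206 to 538, and pairs of untreated mice labelled KO by 283 to 1088. The fits were tested on simulated data at an FDR of 0.05. The untreated fit recovered 0 of 50 genes changed by a log2FC of 0.75, 1 of 50 at 1 and 32 of 50 at 2. The AAV fit averaged over viruses recovered 21 of 50 at 0.5, 37 of 50 at 0.75 and 45 of 50 at 1. Named are all members, pathway genes called at an FDR of 0.05, otherwise the most abundant and lowest-p genes of a list, and for each member its 2 most correlated genes whose symbol is not provisional. Members and lists were chosen with earlier results of these data known. *Pdpk1*, *Gsk3b* and *Slc2a4* fall under the list rule, the genes listed from DESeq2's calls were chosen after their values were seen, and 1 gene that it would name is not reported here. Alternatives were DESeq2 1.42.0, limma-voom (limma 3.58.1), RLE scaling, other filters and dispersions, covariates, a replicate block and left-out libraries.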

Additional observations from a re-analysis of the deposited data

Results flagged for a closer look

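In 2 of 20 sets of 5 untreated libraries (10 genes in 2 groups) 1 library stood apart from the other 4 by Dixon's test at the 95% level, which chance gives in about 1 of 20, and both were for *Igf1r*. WT mouse 2 had 14.2 CPM, with the next WT mouse at 10.4 CPM. Mouse 2 labelled KO had 15.6 CPM, with the next KO mouse at 7.82 CPM. The labels do not give same-numbered mice as a pair. Without WT mouse 2 the log2FC of *Igf1r* was -0.15, and without mouse 2 labelled KO it was -0.60, against -0.29 with all libraries, and the gene was not called in any of these.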

How the results depend on the processing

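No member was called at an FDR of 0.05 in any of the 9 comparisons under 21 to 23 alternatives each, with 2 exceptions, both for genotype averaged over viruses. DESeq2 called 2 members (*Pik3r1* and *Foxo1*), and the fit without WT + AAV-PRDM16 replicate 3 called 1 (*Pik3r1*), so that over left-out libraries the count ran from 0 to 1. The adjusted p of *Pik3r1* there ran from 0.0280 to 0.445 over 22 alternatives. In untreated BAT the count of members past 2-fold and an FDR of 0.5, 1 with all libraries, was 0 with limma-voom, with a Y-linked transcript covariate, without WT mice 1 and 2, and without these and mouse 1 labelled KO. It was 2 with a muscle marker covariate, and from 0 to 3 with 1 library left out, being 0 without the first or second WT mouse or without mouse 5 labelled KO, 2 without WT mouse 3 and 3 without mouse 1 labelled KO. Over all genes that count was 1924, but 6907 with no filter, 1273 with limma-voom, 0 in the other fits just named with 0 members, and 0 to 3155 with 1 library left out. Over all members and comparisons, 152 of 2020 alternative values changed sign. Among the differences given above, left-out libraries turned *Irs2* (-0.83 to 0.023), *Igf1* (-0.44 to 0.020) and *Foxo1* (-0.32 to 0.046) in untreated BAT, *Igf1r* under AAV-GFP (-0.027 to 0.26) and between viruses in KO (-0.12 to 0.16), and *Insr* averaged over viruses (-0.0093 to 0.074). The macrophage covariate turned the averaged *Irs1* (0.17), *Igf1* (-0.19) and *Igfbp3* (-0.064), and the muscle covariate turned *Igf1r* between viruses in KO (-0.016). The cause was not tested. Deviations of same-numbered mice correlated from -0.29 to 0.11 (untreated) and from -0.09 to 0.15 (AAV), so no pairing by replicate number was seen. The labels give no litter, and the replicate block does not stand for one, so a pairing by litter was not tested. With the replicate block the averaged log2FC of *Pik3r1* was 0.72 (adjusted p = 0.159), 344 in place of 412 genes were called in that comparison, and no member was called in any. The call of *Igfbp4* was lost under the block (adjusted p = 0.0611), and those of *Igfbp4* and *Irs3* with no filter (0.0517 and 0.0524), with the muscle covariate (0.0656 and 0.0732) and with the T and B cell covariate (0.0511 and 0.0596), while *Grb10* and *Stc1* were called in each of these 4 fits. The number of genes called for genotype averaged over viruses was 1584 by DESeq2, 1269 by limma-voom, 250 with no filter, 210 with the muscle covariate and 0 with the macrophage covariate, and 89 to 590 with 1 library left out. The averaged effects and the interaction have no value from only the 2 groups compared. The covariate of macrophage markers and the fit without all 3 untreated mice were chosen after seeing the data.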
